A study of Homo sapiens with 11 samples.

Results

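Intragenic active enhancers of HK2 cells were the 10806 regions, of 29531 in all on chromosomes 1 to 22 and X, that carried acetylation of histone H3 at lysine 27 (H3K27ac) without trimethylation at lysine 4 (H3K4me3) inside a protein-coding gene. They were chosen by the peaks themselves: hg19 was cut into 200-bp bins, a mark was on where its peaks covered at least 100 bp of a bin in both replicates, and adjacent bins with H3K27ac on and H3K4me3 off were joined. A region was kept when its midpoint lay in the body of a protein-coding gene, called the host, and over 2 kb from every annotated transcription start site (TSS). Of the other regions, 9030 lay outside protein-coding genes and 9695 within 2 kb of a TSS. HK2 is an immortalized line of human kidney proximal tubule epithelial cells, and the study asked which regulatory elements these cells use and which genes they serve. All samples were of this 1 line under 1 condition, grown in medium with fetal bovine serum, antibiotics and a low share of DMSO, so that no group was compared with another. The samples used were 2 ChIP-seq replicates each of H3K27ac, H3K4me3 and H3K27me3 and 2 RNA-seq libraries, while the input DNA and the H3K27ac HiChIP samples were not analysed here.

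Enhancers are stretches of DNA where transcription factors bind and raise transcription from promoters that can lie far away. Nucleosomes beside a working enhancer carry H3K27ac, whereas H3K4me3 marks promoters and H3K27me3 marks genes silenced by Polycomb. Many enhancers sit in introns, and an intronic enhancer may serve its host gene or another gene nearby, so that the host and the gene with the nearest TSS are both common guesses at its target.

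The central 300 bases of 6 regions show what these stretches look like. They belong to the widest region of each of the 6 hosts with most regions (for FOXP1 this is the same region as for ENSG00000285708, a longer gene model over it), and to the widest region of all, in UQCC1. Positions are on GRCh37 (hg19), the letters are the plus strand of the reference genome, and capitals mark AP-1 letters (TGANTCA, N being any base) and TEAD letters (GGAATG) on either strand.
RAD51B, chr14:68608651-68608950: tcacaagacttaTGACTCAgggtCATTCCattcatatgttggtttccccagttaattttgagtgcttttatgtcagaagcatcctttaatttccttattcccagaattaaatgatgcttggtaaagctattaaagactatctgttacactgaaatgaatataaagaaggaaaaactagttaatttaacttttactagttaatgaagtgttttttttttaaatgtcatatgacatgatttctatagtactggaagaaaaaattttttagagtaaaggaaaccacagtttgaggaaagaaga
BABAM2, chr2:28177851-28178150: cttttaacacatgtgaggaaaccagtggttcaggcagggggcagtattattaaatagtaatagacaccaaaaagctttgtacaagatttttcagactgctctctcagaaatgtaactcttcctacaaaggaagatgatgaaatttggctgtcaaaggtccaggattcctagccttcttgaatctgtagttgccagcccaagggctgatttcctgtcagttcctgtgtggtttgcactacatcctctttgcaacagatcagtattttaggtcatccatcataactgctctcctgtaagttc
ENSG00000285708, chr3:71553651-71553950: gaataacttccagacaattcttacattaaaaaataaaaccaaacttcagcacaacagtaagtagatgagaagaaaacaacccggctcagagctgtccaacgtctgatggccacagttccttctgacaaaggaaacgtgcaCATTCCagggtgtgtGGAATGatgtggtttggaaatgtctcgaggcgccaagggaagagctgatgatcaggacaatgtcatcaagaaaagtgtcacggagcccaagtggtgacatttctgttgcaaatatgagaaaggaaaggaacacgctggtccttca
ROR1, chr1:64340551-64340850: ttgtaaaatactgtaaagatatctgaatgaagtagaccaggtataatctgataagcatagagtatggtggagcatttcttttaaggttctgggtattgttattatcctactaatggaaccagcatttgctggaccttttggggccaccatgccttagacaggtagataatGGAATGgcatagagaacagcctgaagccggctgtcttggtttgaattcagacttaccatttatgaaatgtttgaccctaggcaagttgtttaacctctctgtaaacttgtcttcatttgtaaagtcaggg
TNIK, chr3:171002451-171002750: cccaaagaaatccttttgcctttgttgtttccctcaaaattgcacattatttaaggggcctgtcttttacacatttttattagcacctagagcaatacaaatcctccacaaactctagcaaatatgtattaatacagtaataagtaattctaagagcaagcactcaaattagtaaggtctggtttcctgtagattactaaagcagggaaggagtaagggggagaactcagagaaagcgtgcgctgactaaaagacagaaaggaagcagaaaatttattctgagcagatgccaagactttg
UQCC1, chr20:33900151-33900450: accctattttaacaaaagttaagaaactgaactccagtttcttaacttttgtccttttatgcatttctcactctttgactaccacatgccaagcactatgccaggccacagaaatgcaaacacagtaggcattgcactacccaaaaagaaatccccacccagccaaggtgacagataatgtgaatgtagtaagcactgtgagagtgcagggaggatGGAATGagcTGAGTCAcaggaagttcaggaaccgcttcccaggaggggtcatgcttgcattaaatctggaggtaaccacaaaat
AP-1 is the dimer of FOS and JUN family proteins, and TEAD proteins are the DNA-binding partners of YAP1. In these 6 windows AP-1 letters appeared in RAD51B and UQCC1, and TEAD letters in RAD51B, ENSG00000285708, ROR1 and UQCC1. The RAD51B region covered 14000 bp of intron 7 of 10 and the UQCC1 region 20200 bp of intron 8 of 9. The widest region of DAB2, which the study named, covered 1200 bp of intron 1 of 14, with its midpoint 6099 bp from the nearest TSS.

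The peak lists held 57521 H3K27ac peaks in replicate 1 and 38484 in replicate 2, with median widths of 1359 and 658 bp. Where the replicates differed in width the rule kept the narrower extent, so 6399 regions (59.2%) shared a replicate 1 peak with another region, and neighbouring regions are not independent. In the RNA libraries, 6 of 7 epithelial markers, CDH1 being the exception, were expressed, meaning that each library had 1 or more FPKM (fragments per kilobase of transcript, scaled to the number of mapped fragments), KRT8 at 179 and 184.3. Of the defining proximal tubule markers, LRP2 was listed at 0 in both libraries, CUBN at 0.0334 and 0.0416, and GGT1 at 64.1 and 58.1. The 7 proximal tubule markers summed to 66.4 and 60.8 FPKM, of which GGT1 made up nearly all. Among markers of other cells, VWF, KDR and EMCN (endothelium) and PTPRC and CD3E (immune cells) were listed at 0 in both libraries, and the summed FPKM of the endothelial list was 0.0111 and 0.0404. Of the remaining lists, the 7 podocyte markers summed to 19.5 and 22.3 FPKM, led by SYNPO, the 8 of the loop and distal nephron to 0.972 and 0.701, the 6 immune markers to 5.204 and 4.542, led by CSF1R, and the 5 stromal markers to 5.23 and 4.78.

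The regions covered 10.71 Mb and had a median width of 600 bp, with quartiles of 400 and 1200 bp. A width of 200 bp, the smallest possible, was found for 10.4% of them, and 12.6% spanned 2 kb or more. Regions outside genes were alike in width, with a median of 600 bp and 14.4% at 2 kb or more. The median GC content of the central 300 bp was 45.3%, against 44.7% outside genes and 40% over all 300-bp windows of gene interiors. Marks below the rule's limit were still present: an H3K4me3 peak of replicate 1 touched 24.9% of the regions and one of replicate 2 touched 2.74%, while peaks of both touched 214 regions. H3K27me3 peaks touched 2 regions. At the 2-kb limit, the 271 regions inside by up to 200 bp and the 266 just outside in gene bodies had the same median width of 600 bp, with an H3K4me3 peak of some replicate in 37.3% and 36.8%.

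Besides those of UQCC1 and RAD51B, the widest regions were one of 18000 bp in intron 12 of SUSD1, a 13200-bp region in ENSG00000258989 whose nearest TSS was that of PRKCH, a protein kinase C gene, and 11400-bp regions in PXYLP1 and ZBTB38, which overlap, and again in SUSD1. The other 4 of the 10 widest lay in ERGIC1, CAPN2, MICAL2 and TSPAN14, with 11200, 10800, 10600 and 10200 bp. CAPN2, a subunit of the protease calpain, was the most expressed of these hosts, at 202.9 and 199.2 FPKM. Of the 10, 5 had no H3K4me3 peak in either replicate. The ENSG00000258989 region was touched by 6 replicate 1 peaks, that of UQCC1 by 5 and that of CAPN2 by 4.

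Position was taken for the 10224 regions with a single host, on the host's canonical transcript. The midpoint fell in an intron for 84.6% of them, where introns made up 83.6% of all 200-bp bins that could hold a midpoint. Intron 1 held 2725 regions, or 26.7% (95% Wilson interval 25.8 to 27.5%), against 19.7% of the bins, and intron 2 held 15.4% against 13.2%. Introns from the third on held 42.5% (41.6 to 43.5%) against 50.7%. Coding exons held 104 regions (1.02% against 1.59% of bins), 3' UTR exons 277 (2.71% against 2.32%), and 11.7% lay in the gene body but outside the canonical transcript. These intervals cover counting error alone, and regions that share a peak make them too narrow.

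Density fell with distance from the nearest protein-coding TSS, from 13.5 regions per Mb of gene interior at 2 to 5 kb to 4.90 beyond 100 kb. The median distance was 13171 bp, against 53271 bp for regions outside genes, and the longest was 553079 bp. With the gene body cut into 10 equal parts, parts 2 and 3 from the 5' end held 11.5% of regions each, where 10.3% and 10.5% of bins lay, and the last part held 8.51% against 9.55%. Chromosomes ranged from 5.69 regions per eligible Mb on X to 16.1 on 17, with 10.2 over all.

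**Figure D1:**
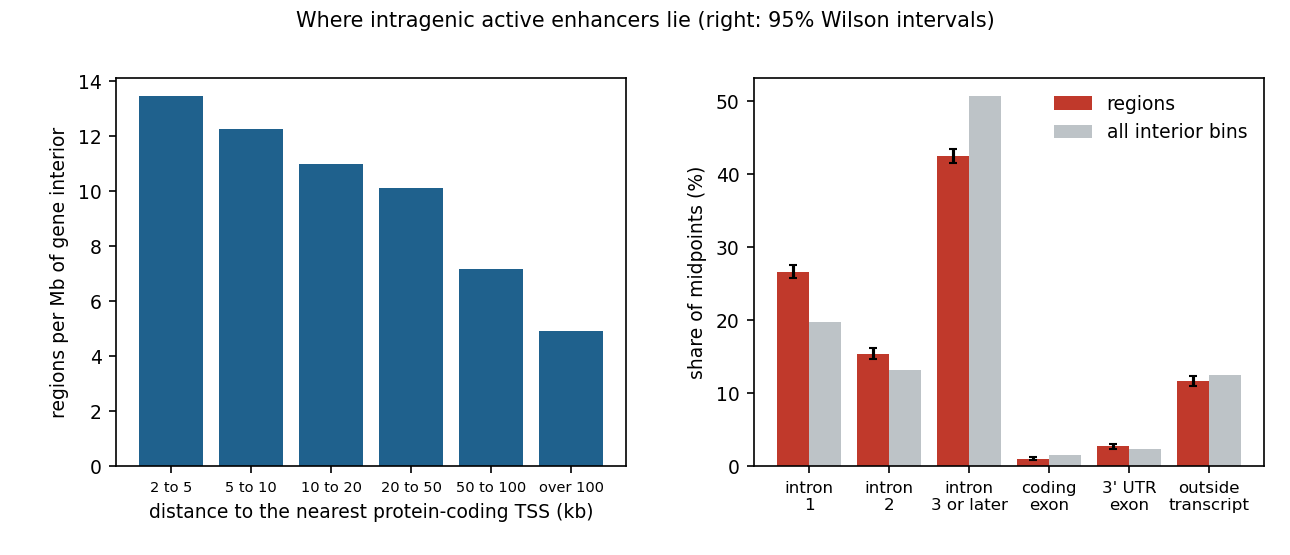
Left, intragenic active enhancers per Mb of gene interior (y axis) by distance of the midpoint to the nearest protein-coding TSS in kb (x axis); right, share of midpoints in % by feature of the host's canonical transcript, with regions in red (bars, 95% Wilson intervals) and all interior 200-bp bins in grey. Density goes down at every step from 13.5 to 4.90 per Mb, and intron 1 holds 26.7% of regions against 19.7% of bins.

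Sequence was not used by the rule. AP-1 letters stood in the central 300 bp of 1644 regions, or 15.2% (14.6 to 15.9%), against 9.15% of all such windows of gene interiors, 17.2% of regions outside genes and 7.71% of 35116 RefSeq promoters (300 bases each, GRCh38.p14). TEAD letters stood in 17.5% (16.8 to 18.3%) against 15.4% of interior windows. RUNX letters (TGTGGTT), the site of the RUNX factors, stood in 6.25% against 5.73%, and the GC box (GGGCGG) in 6.39% against 3.83%. HNF1 letters (GTTAATNAT) stood in 1.22% (1.03 to 1.45%), near the 1.34% of interior windows. HNF4 letters (CAAAGTCCA) stood in 0.379% against 0.376%, ETS letters (CCGGAAGT) in 24 regions, 0.222% (0.149 to 0.330%) against 0.125%, and CRE letters (TGACGTCA) in 13, 0.1203% (0.0703 to 0.206%) against 0.0982%. Both strands were searched, and HNF1 was the only one of these whose share was below that of interior windows.

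The share with AP-1 letters varied with width: 8.50% of 200-bp regions held them (7.01 to 10.3%), 10.5% of those of 400 to 800 bp, 25.8% of those of 1000 to 1800 bp (24.0 to 27.7%) and 25.4% of those of 2 kb or more. The smallest class, whose 300-bp windows reach past both ends of the region, was thus at the level of all interior windows. The share was 14.9% where a host was expressed and 16.8% where none was (15.2 to 18.6%), and 20.2% where an H3K4me3 peak touched the region against 13.5% where none did.

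Around the centres, AP-1 letters formed a double crest. Their density was 0.578 and 0.599 per kb in the 100-bp steps on either side of the centre, 0.951 per kb at 300 to 400 bp before it and 0.922 at 400 to 500 bp after it, and 0.384 and 0.357 at the outer ends of the 2-kb flanks. TEAD letters had crests at lower contrast, with 0.836 per kb at 400 to 500 bp before the centre and 0.842 at 400 to 500 bp after it, 0.641 and 0.684 on either side of the centre and 0.564 to 0.598 at the outer ends. The GC box had no such crest and stayed between 0.181 and 0.262 per kb over the whole span.

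**Figure D2:**
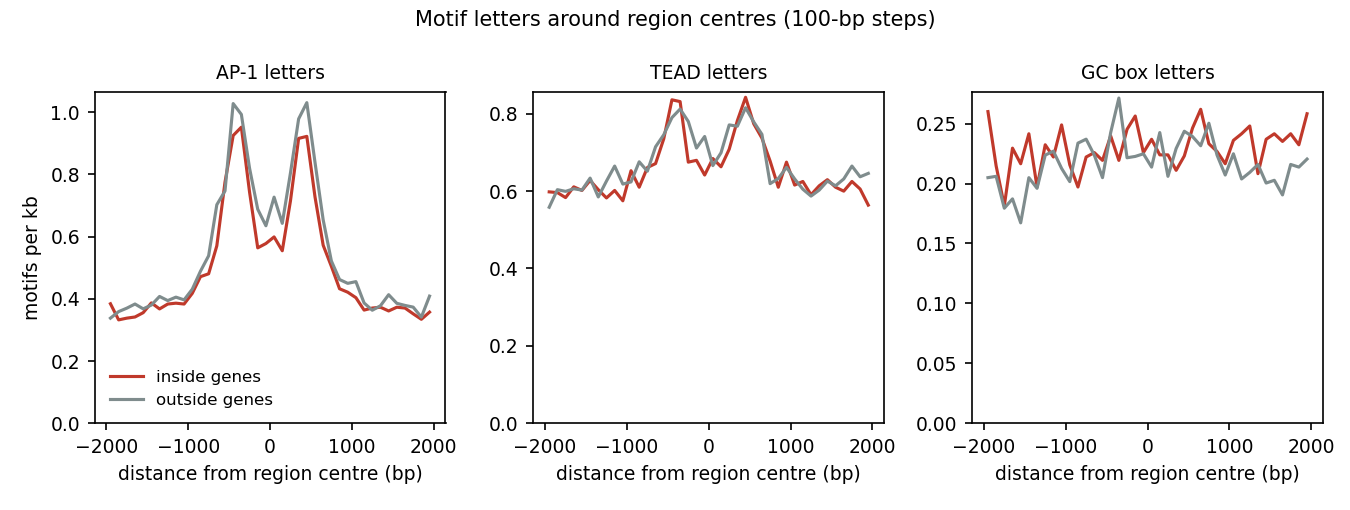
Motif letters per kb (y axis) by distance from the region centre in bp (x axis, 100-bp steps) for AP-1, TEAD and the GC box, in intragenic regions (red) and regions outside genes (grey); both strands were counted. AP-1 letters in genes peak at 0.951 per kb at 300 to 400 bp from the centre and dip to 0.554 between the crests, and AP-1 letters around regions outside genes also form 2 crests.

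The crests led to the gaps between neighbouring regions, which were examined after this profile was seen. There were 3456 gaps of at most 1000 bp between regions of the same host, and 96.96% lay wholly inside H3K27ac bins of replicate 1 but only 2.58% inside those of replicate 2. The 300-bp windows centred on the gaps held AP-1 letters in 36.2% (34.6 to 37.8%). The share was 15.2% for windows centred on the regions and 9.15% for interior windows. By size, it was 41.7% (39.2 to 44.2%) for the 1501 gaps of 200 bp and 39.1% for gaps of 400 bp. It was 25.1% for 600 bp and 14.4% for 800 or 1000 bp. Windows of the 200-bp gaps reach into the regions on both sides, whereas those of wider gaps lie wholly in the gap, so these shares are not of like stretches. TEAD letters stood in 24.7% (23.3 to 26.2%), RUNX letters in 9.90% (8.94 to 10.9%) and HNF1 letters in 2.60% (2.12 to 3.19%), each above its share in the regions. The GC box, at 5.64%, was not. Gaps outside genes held AP-1 letters in 40.4%. H3K4me3 was on in both replicates in 2.46% of the gaps.

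The next 3 windows are centred on such gaps in hosts with many regions, and were picked because they hold AP-1 letters. The windows are wider than the 200-bp gaps and reach into the regions beside them. In BABAM2 the first and the last AP-1 letters lie in those regions. Each gap lay inside a replicate 1 H3K27ac peak, and capitals are as above.
RAD51B gap, chr14:68677551-68677850: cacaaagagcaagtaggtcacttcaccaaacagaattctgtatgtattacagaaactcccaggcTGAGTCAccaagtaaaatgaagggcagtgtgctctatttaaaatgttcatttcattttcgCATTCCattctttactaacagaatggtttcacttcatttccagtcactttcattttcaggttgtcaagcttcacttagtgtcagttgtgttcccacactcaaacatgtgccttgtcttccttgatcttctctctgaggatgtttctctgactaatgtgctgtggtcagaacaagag
BABAM2 gap, chr2:28351351-28351650: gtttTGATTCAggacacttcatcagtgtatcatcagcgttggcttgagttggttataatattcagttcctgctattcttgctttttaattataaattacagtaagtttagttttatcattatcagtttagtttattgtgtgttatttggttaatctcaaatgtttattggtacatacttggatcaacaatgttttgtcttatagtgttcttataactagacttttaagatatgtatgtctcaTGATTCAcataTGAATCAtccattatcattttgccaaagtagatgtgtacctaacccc
ROR1 gap, chr1:64341851-64342150: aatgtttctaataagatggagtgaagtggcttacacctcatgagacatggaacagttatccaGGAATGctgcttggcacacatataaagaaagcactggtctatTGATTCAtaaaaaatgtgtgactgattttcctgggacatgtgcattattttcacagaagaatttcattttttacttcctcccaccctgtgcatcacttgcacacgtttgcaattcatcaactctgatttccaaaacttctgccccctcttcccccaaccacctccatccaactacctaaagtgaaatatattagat
The RAD51B and BABAM2 gaps were 200 bp wide, in introns 7 and 6, and the ROR1 gap was 400 bp wide, in intron 1. In RAD51B, windows centred on the gaps held AP-1 letters for 3 of 24 gaps and TEAD letters for 7. In TNIK 6 of 12 held AP-1 letters, in PTPN14 4 of 13, in FOXP1 5 of 14, and in PLCB1 6 of 9. In other hosts the counts were 3 of 14 for BABAM2, 2 of 14 for ROR1 and 3 of 16 for COL4A2. They were 3 of 15 each for CRIM1 and AFF1, 4 of 4 for CDH13 and 0 of 4 for PAX8.

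The regions lay in 3641 hosts, 20.6% of the 17667 protein-coding genes with any interior over 2 kb from every TSS. Both counts depended on the replicates used: replicate 1 alone gave 24179 regions in 6480 hosts, and replicate 2 alone 11139 in 3743. A host held 2 regions in the median and 3.13 in the mean. A single region was found in 1439 hosts, and 196 hosts with 10 or more held 2785 regions (25.8%). The share moved with length: with genes put into 4 equal classes of interior length, 3.17% in the shortest (0.2 to 6.6 kb) were hosts, 10.8% and 22.3% in the next classes, and 46.2% in the longest (63.6 kb and more). Across 3575 hosts with RNA values, Spearman's rho of the number of regions with interior length was 0.38, given as a description since the number can only grow with length.

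Most regions lay in RAD51B, a gene of homologous recombination, with 56 covering 103800 bp, of which 19 lay outside its canonical transcript. BABAM2, a subunit of the BRCA1-A complex, held 41, and ROR1, a receptor tyrosine kinase-like receptor for Wnt ligands, held 31. The forkhead factor gene FOXP1 and TNIK, a kinase of Wnt signalling, held 30 each. ENSG00000285708, with 37, is a gene model that runs over FOXP1 and was absent from the RNA files, so its regions repeat those of FOXP1 in part. PTPN14, a tyrosine phosphatase that restrains YAP1, and ASTN2, an astrotactin of neuronal migration, held 29 each. KCNMA1, the pore subunit of the BK potassium channel, and COL4A2, a chain of basement membrane collagen, held 28 each. The other hosts among the 15 with most regions were PLCB4, AFF1, CRIM1, GLIS3 and TIAM2, with 24 to 27. Per kb of interior, COL4A2 (17.2 regions per 100 kb), PTPN14 (15.7) and CRIM1 (14.2), a transmembrane protein that binds BMPs, were the densest of these, and ASTN2 (3.06) the sparsest.

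Their expression differed widely. COL4A2 had 382.8 and 374.9 FPKM in the libraries, CRIM1 73.3 and 78.8, PTPN14 53.0 and 52.5, and RAD51B, the host with most regions, 3.17 and 2.99. The 14 of the 15 with RNA values were all expressed, and all 14 had an active promoter, meaning a bin within 1 kb of a TSS with H3K4me3 and H3K27ac on and H3K27me3 off. In ROR1, 20 of 31 regions lay in intron 1, in PTPN14 10 of 29, and in COL4A2 none. The closest COL4A2 region to a TSS of the gene was at 2448 bp and the farthest at 52948 bp, with 23 of 28 in introns 3 and 4.

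Relative to length, the densest hosts with 5 or more regions included ZDHHC7, a palmitoyltransferase, with 8 regions in 18.4 kb, RHOF, VXN and FOSL2, a subunit of AP-1. ZDHHC7 had 46.1 and 49.3 FPKM and FOSL2 55.0 and 56.1, while VXN had 0.799 and 0.801. The 5 hosts of highest expression held 1 or 2 regions each in interiors of 1 to 39 kb, at 2.56 (FN1) to 100 (CCN1) regions per 100 kb. Even the density of FN1 was above that of all gene interiors, which held 10.2 per Mb, a larger unit. These densities rest on 1 or 2 regions, and that of CCN1 on 1 region in 1 kb. FN1, fibronectin, had 2333 and 2343 FPKM and 1 region in 39 kb, EEF1A1, a translation elongation factor, 2287 and 2378 FPKM and 1 region, and ENO1, an enzyme of glycolysis, 1947 and 1867 FPKM and 2 regions. ACTB and CCN1 held 1 each.

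**Figure D3:**
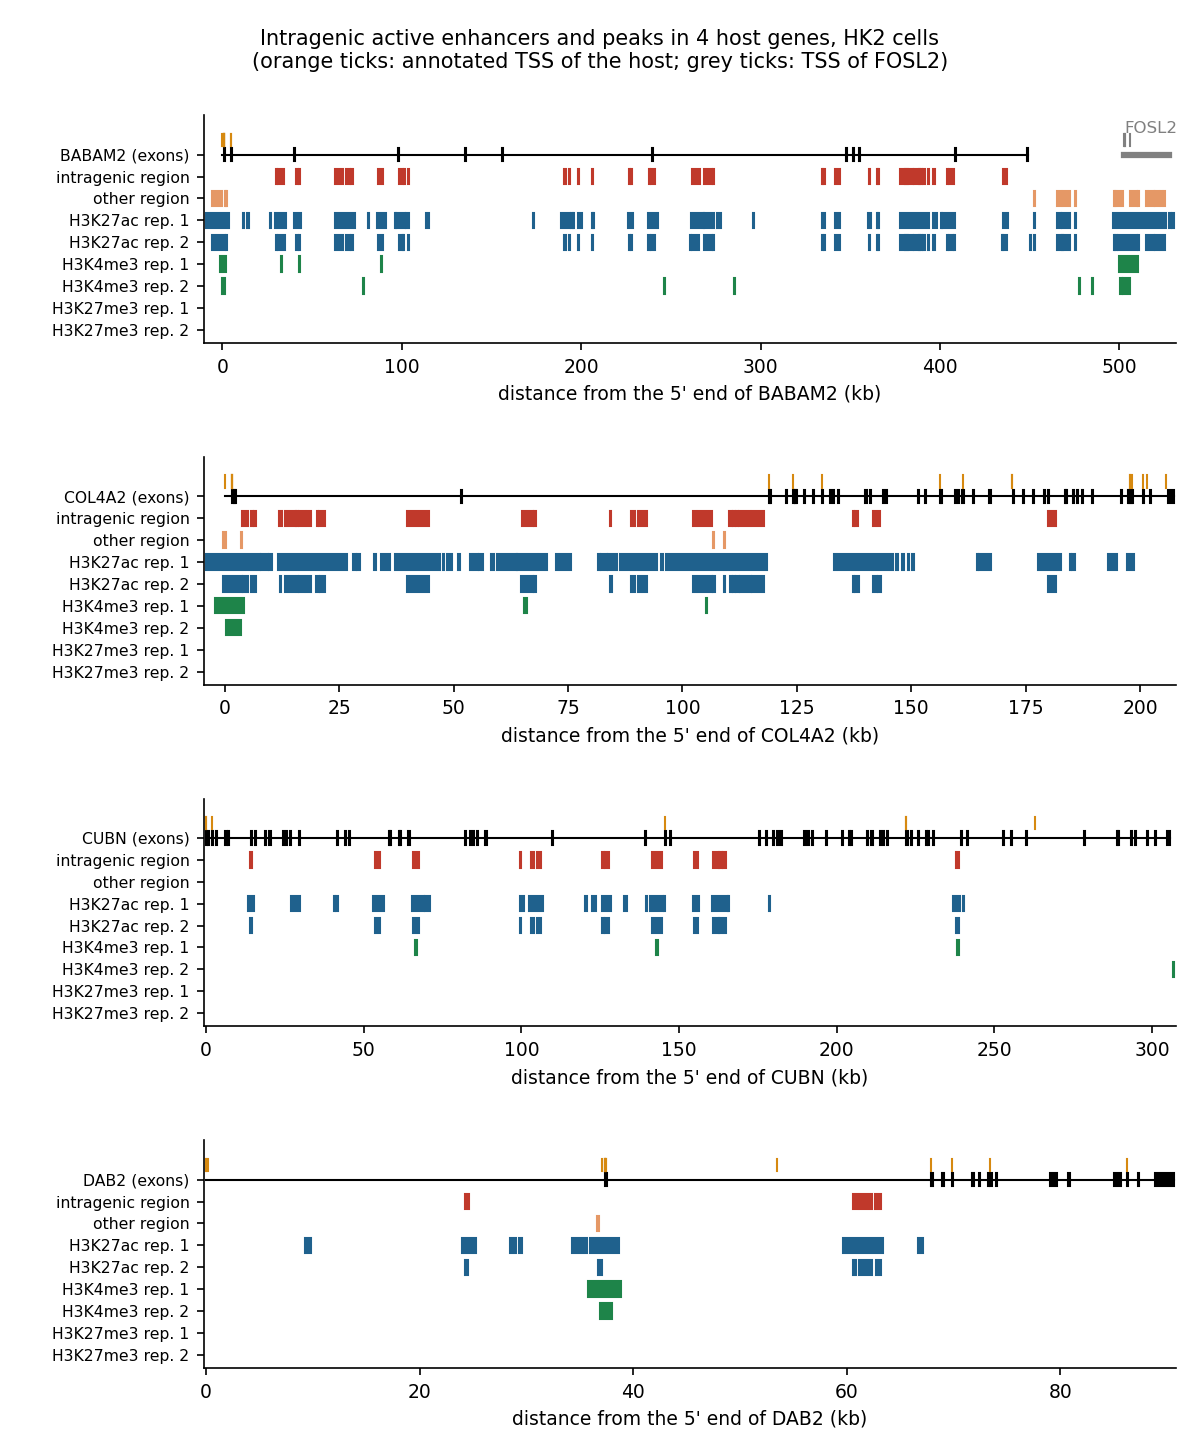
Maps of BABAM2, COL4A2, CUBN and DAB2 by distance from the 5' end of the gene in kb (x axis), with exons of the canonical transcript (black), annotated TSS (orange ticks, grey for FOSL2), intragenic regions of the gene (red), other regions of H3K27ac without H3K4me3 (light orange) and the peaks of each replicate; narrow features are drawn at a minimum width. The 41 BABAM2 regions run along the gene towards FOSL2, 23 of 28 COL4A2 regions lie in introns 3 and 4, the 14 CUBN regions have no H3K4me3 of both replicates at a TSS, and 3 of 4 DAB2 regions lie together in intron 1.

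Host genes were expressed more often than other genes. Of 3575 hosts with RNA values, 2711 (75.8%, 74.4 to 77.2%) were expressed, with 1 FPKM or more in each library, against 60.9% of all genes with such an interior and 57.1% of those without a region (56.2 to 57.9%). The median FPKM of hosts was 7.35 and 7.45 in the libraries, against 2.72 and 2.86 in genes without a region. The difference was present at each length: in the 4 classes of interior length, 78.1, 77.1, 78.5 and 74.1% of hosts were expressed, against 52.1, 60.4, 62.5 and 52.5% of the other genes. Hosts of 10 or more regions were expressed in 88.6% (83.3 to 92.3%), those of 5 to 9 in 82.2%, and those of 1 region in 74.4%. Genes are not replicates and the libraries number 2, so no test was made, and the intervals cover counting error only.

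Promoter state was called from the same H3K27ac and H3K4me3 peaks that chose the regions, so it is a description and no independent support for the RNA result. An active promoter was found in 67.5% of hosts, against 53.8% of all genes with such an interior. Among genes with an active promoter, 93.99% of hosts (92.97 to 94.9%) and 92.4% of genes without a region (91.8 to 93.0%) were expressed. Among those without one, the shares were 38.2% (35.4 to 41.0%) and 21.3% (20.4 to 22.3%). The number of regions was only weakly related to the level: Spearman's rho with log10(FPKM + 1) across 3575 hosts was 0.10, and 0.30 for regions per kb, with no p because hosts share libraries and length.

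**Figure D4:**
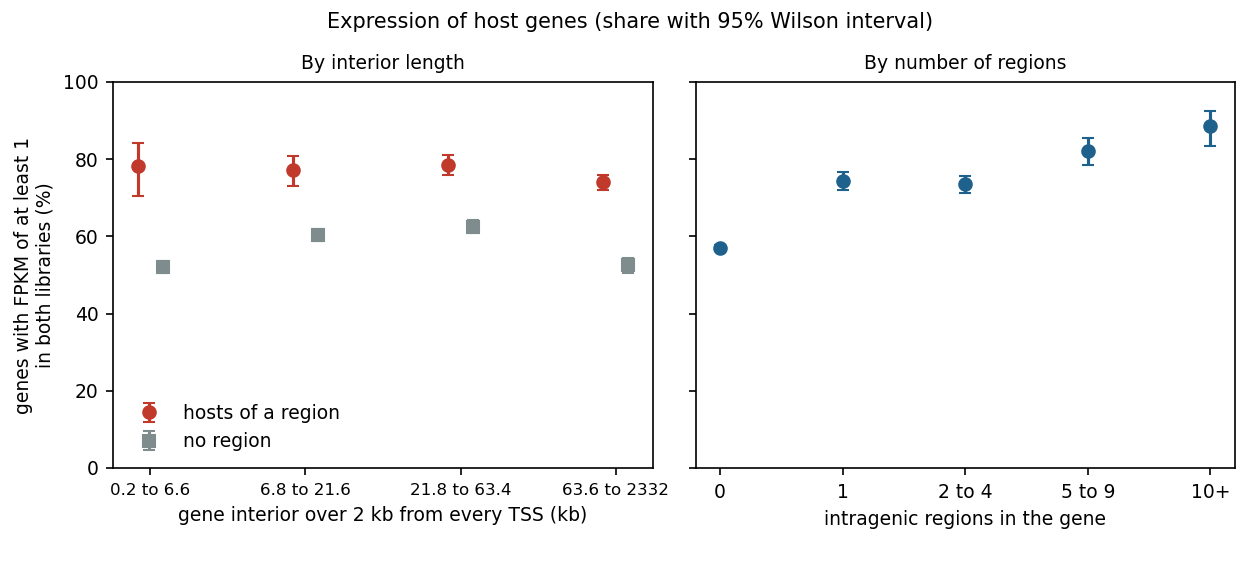
Share of genes with 1 FPKM or more in each RNA-seq library (y axis, %), with 95% Wilson intervals, by class of interior length in kb (left; hosts red, genes without a region grey) and by number of intragenic regions (right, blue). Hosts are above the other genes in each class (74.1 to 78.5% against 52.1 to 62.5%), and the share is 88.6% at 10 or more regions.

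Regions were also found in genes with little RNA, although hosts were expressed more often than other genes. An FPKM under 1 in both libraries was found for 788 hosts (22.04%), which held 1956 regions. H3K27me3 was on near a TSS in 227 of them (28.8%) and an active promoter was present in 118 (14.97%). Over all genes with such an interior the shares were 11.6% and 53.8%, but 60.9% of those genes were expressed, so the sets differ in RNA level. Among genes without an active promoter, H3K27me3 was on near a TSS in 24.5% of hosts and 22.8% of genes without a region. LSAMP, a neuronal adhesion molecule, held 18 regions at 0.476 and 0.324 FPKM. ZPLD1 held 17 regions covering 40800 bp at 0.294 and 0.388 FPKM, all of them in the gene body but outside its canonical transcript. PLCB1, a phospholipase C, held 17 at 0.682 and 0.212 FPKM, of which 5 lay outside its canonical transcript. DLGAP1, a postsynaptic scaffold, held 16 at 0.0300 and 0.0203 FPKM. CUBN, the endocytic receptor cubilin of the proximal tubule, held 14 covering 17800 bp, all in introns between 6 and 54 of 66, and had no mark combination of an active promoter. MAGI2 and CDH13 held 12 each, at up to 0.496 and 0.303 FPKM. Others were ENSG00000255872 with 20 regions and ENSG00000283563 with 14, of which none was nearest to its own TSS. Both are gene models known by identifier alone, and long models that overlap other genes make such hosts uncertain.

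The nearest TSS belonged to a host for 9895 regions, 91.6% (91.03 to 92.1%). For single-host regions the share was 91.5%, at the level of 91.3% of all single-host interior bins. An expressed host was present for 81.95% of regions with a measured host, and the nearest gene was expressed for 81.2%. These shares had to be close, because the nearest gene was a host for 91.6% of regions. Host and nearest gene differed for 872 single-host regions, which lay a median of 23085 bp from the nearest TSS and 47206 bp from the closest TSS of the host. Their share was greatest far from any TSS: the nearest TSS was a host's for 94.9% of regions at 2 to 5 kb and for 73.6% beyond 100 kb.

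These regions made 453 pairs of a host and a nearest gene, 421 with RNA values for both. The host had the higher FPKM in both libraries in 190 pairs (45.1%, 40.4 to 49.9%), where 42.3% of all 5998 pairs of gene interiors did. The nearest gene was higher in 211 (50.1%), where 45.8% of all pairs had it higher. The median difference of log10(FPKM + 1), host minus nearest, was -0.023 ± 0.005 (SD of the library medians, n = 2 libraries), against 0 over all pairs. This SD does not cover the spread over pairs, so it cannot tell whether the difference is other than 0. Neither gene was higher in both libraries in 20 of the 421 pairs and in 717 of all 5998. These values hold for the nearest TSS of any protein-coding transcript: with 1 TSS per gene the host was higher in 50.7% of pairs, and with genes of every type as nearest genes in 83.6%. A host below 1 FPKM in some library beside an expressed nearest gene was found in 97 of the 421 pairs, and the opposite in 84. Over all 5998 pairs of gene interiors these counts were 1262 and 1181.

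The share differed with the place of the nearest gene. Where it lay wholly inside the host, the host was higher in 39 of 58 pairs (67.2%, 54.4 to 77.9%), against 49.04% of all 628 such pairs. The nearest gene was higher in 25.9% of the 58 and 28.5% of the 628. Neither gene was higher in both libraries in 4 of the 58 but in 141 of the 628, so the host shares differ in part by ties. Where they partly overlapped, the host was higher in 36.7% of 120 pairs, against 37.5%. Where it lay outside, the host was higher in 44.03% of 243, against 43.3%. Nearest genes nested in hosts had a median of 0.173 FPKM and those outside 8.02, where the medians over all such pairs of gene interiors were 0.102 and 4.55.

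**Figure D5:**
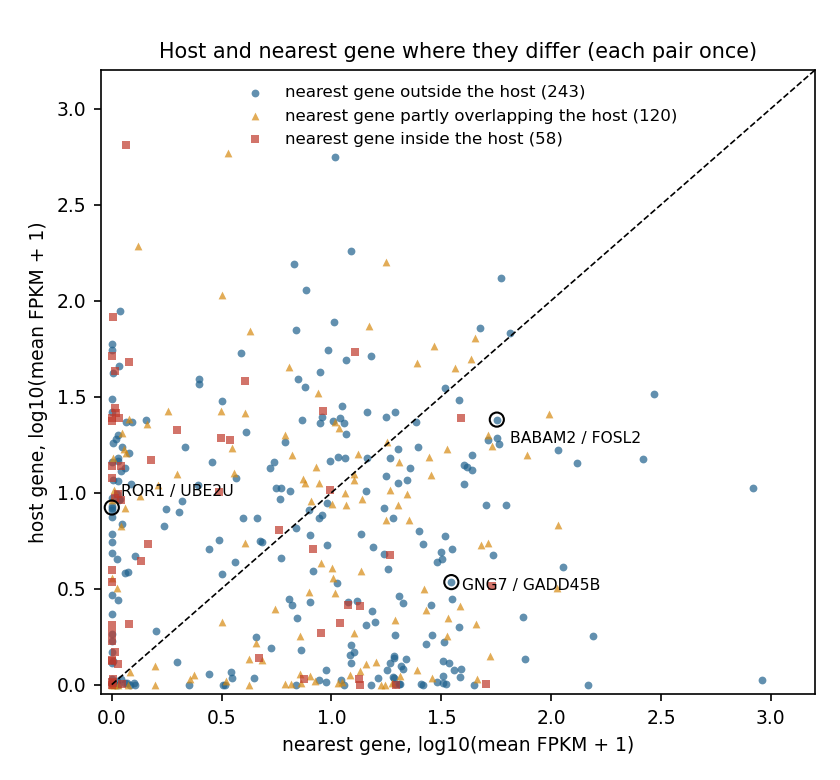
Expression of host (y axis) and nearest gene (x axis) as log10(mean FPKM + 1) over 2 libraries, 1 point per pair, for the 421 pairs in which the nearest protein-coding TSS is not the host's, coloured by where the nearest gene lies; the dashed line marks equal values, and rings mark 3 pairs named in the text. Points lie on both sides of the line, with 190 hosts and 211 nearest genes higher in both libraries, and many nested genes lie at the left edge.

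Of the 10 pairs with most regions, the host was higher in both libraries in 3, the nearest gene in 6, and in 1 the libraries differed. BABAM2 and FOSL2 shared 22 regions, a median of 121464 bp from the FOSL2 TSS. BABAM2 had 23.2 and 22.8 FPKM and FOSL2 55.0 and 56.1, both with active promoters. ROR1 and UBE2U shared 18, with ROR1 at 6.47 and 8.25 FPKM and UBE2U listed at 0 in both libraries. GNG7 and GADD45B, a stress-response gene, shared 9, with GNG7 at 2.47 and 2.37 FPKM and GADD45B at 42.3 and 25.9. DNM3 and PIGC shared 7, with 1.11 and 1.23 FPKM against 17.8 and 19.1. ASTN2 and TRIM32, a ubiquitin ligase gene nested in it, shared 16, and their values overlapped, at 9.25 and 9.36 against 6.10 and 11.5. HSF2BP was above its nested neighbour H2BC12L, at 4.18 and 4.62 FPKM against 0.228 and 0.702. In the pairs ENSG00000258989 with PRKCH, CACNA2D3 with LRTM1 and MPP7 with ODAD2, the hosts were under 1 FPKM in both libraries. Their nearest genes were low as well, with PRKCH at 2.89 and 1.77 FPKM, ODAD2 at 0.790 and 1.17, and LRTM1 at 0.0263 and 0. CACNA2D3, at 0.0287 and 0.113, counted as higher than LRTM1 at these low values.

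Gene groups differed in how often they hosted regions. The lists were chosen with earlier results of these data known, so their counts are descriptions beside the 20.6% of all genes. In integrins and focal adhesion, 20 of 25 genes were hosts (80%), with 108 regions: LPP held 20, the talin TLN2 and the tensin TNS3 13 each, the actinin ACTN4 12 and VCL, vinculin, 7. ACTN4 had 225.7 and 236.7 FPKM and LPP 7.51 and 13.6, while ITGAV, ITGB4, ITGB8, ZYX and FERMT1 held none. Their interiors had a median of 65.8 kb, in the longest class, where 46.2% of genes were hosts. The median was in that class also for growth factor receptors (77.2 kb), AP-1, TEAD and RUNX factors (64.1 kb) and coactivators (97.2 kb), and in the class below it, with 22.3% hosts, for extracellular matrix (56.4 kb) and proximal tubule genes (37.4 kb).

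In extracellular matrix, 12 of 15 genes were hosts, with 76 regions, led by COL4A2 with 28 and LOXL2, a collagen cross-linking oxidase, with 13. COL4A1, which is transcribed from the same promoter region in the opposite direction, held none in 128.8 kb at 328.9 and 337.3 FPKM, beside the 28 of COL4A2. LAMC1 and COL5A1 held 7 each, and COL12A1 and THBS1 none. Of growth factor receptors, 10 of 14 were hosts, with 16 regions in MET and 11 in EGFR. MET had 46.1 and 51.6 FPKM and EGFR 21.2 and 29.0, while INSR, with 161.4 kb of interior and 4.40 and 4.02 FPKM, held none, nor did ERBB2, FGFR1 and TGFBR1.

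Among AP-1, TEAD and RUNX factors and partners, 14 of 18 were hosts (77.8%), with 74 regions. RUNX1 held 18, TEAD1 and WWTR1, a YAP1 paralogue, 12 each, RUNX2 9 and FOSL2 6. WWTR1 had 71.4 and 79.5 FPKM and RUNX2 20.9 in each library. FOS, JUN, TEAD2 and TEAD4 held none, and JUNB and JUND had no interior over 2 kb from a TSS. Of coactivators and acetylation factors, 6 of 11 were hosts (54.5%, near the 46.2% of their length class), with 14 regions, 7 of them in HDAC4. EP300 and CREBBP, the enzymes that place H3K27ac, held none.

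Of proximal tubule transport and endocytosis genes, 6 of 17 were hosts (35.3%), with 39 regions. SLC4A4, the basolateral sodium bicarbonate cotransporter, and CUBN held 14 each, SLC4A4 at 12.84 and 13.99 FPKM. DAB2, the endocytic adaptor of megalin, held 4, SLC2A2 3 and SLC22A2 and SLC3A1 2 each. LRP2, megalin itself, held none in 213.4 kb, had H3K27me3 near a TSS and was listed at 0 in both libraries. Of nephron lineage factors, 2 of 10 were hosts, with 18 regions in all, and PAX8 had 100.2 and 104.1 FPKM. HNF4A held none and was listed at 0 in both libraries.

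Among genes the study named, DAB2 had 11.61 and 11.98 FPKM, and its regions were 600, 1200 and 400 bp wide in intron 1, with another of 400 bp outside the canonical transcript. ITGA3, GLUD1 and CYP24A1, the vitamin D 24-hydroxylase, held 1 each, at 3501, 3061 and 3591 bp from the nearest TSS. The ITGA3 and CYP24A1 regions held AP-1 letters in the central 300 bp and the GLUD1 region did not. WWOX held none in 1007 kb of interior at 6.73 and 5.84 FPKM, and ENAH none in 140 kb at 37.3 and 120.9. WT1, NUDT7, VAT1L, CLEC3A, SLC34A1 and CCND1 held none, and MTX1 had no interior over 2 kb from a TSS.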

How the data were processed

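ChIP-seq and RNA-seq of HK2 cells were used. The authors trimmed reads with cutadapt, aligned those of ChIP-seq with Bowtie2 (build hg19), and MACS2 gave peaks for each replicate. The deposited peak files hold positions only, without heights or read counts, so no depth was computed here. The authors depleted rRNA, aligned with HISAT2 and ran StringTie 1.3.3, per the file headers on GENCODE 27. The deposited FPKM and TPM were summed here over the transcripts of each gene and joined by Ensembl identifier to GENCODE 44 lifted to GRCh37, which supplied gene bodies and TSS. Exact zeros can be failed estimates. Nothing states that replicates came from separate cultures, so their spread may be technical.

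Regions were called as stated, with Python 3.11.15, NumPy 2.4.6 and pandas 2.3.3, and the functions were tested on simulated peaks. Shares have 95% Wilson intervals for counting error, and no test was made, since 1 condition was sampled. Named were hosts by number, density, expression and silence, the pairs and regions leading by count and width, list genes and genes the study named. Members and lists were chosen with earlier results of these data known. Alternatives changed the replicates, coverage, TSS distance, annotation, expression unit and motif window. Some genes and a sequence that these rules select are not reported here.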

Additional observations from a re-analysis of the deposited data

How the results depend on the processing

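No paired analysis was possible because no result came from a test. Requiring a mark in either replicate gave 24549 regions in 6519 hosts, with 92.3% nearest to a host TSS, 20.8% with AP-1 letters and 27.5% in intron 1. Leaving out a ChIP-seq replicate gave 11139 to 24179 regions, 3743 to 6480 hosts, 91.5 to 92.3% nearest to a host TSS, 74.7 to 75.7% of hosts expressed, 44.6 to 46.7% of pairs with the host higher, 14.9 to 21.1% with AP-1 letters and 26.4 to 27.7% in intron 1, the upper counts being those of replicate 1 alone. Leaving out an RNA-seq library gave 76.7 to 77.1% of hosts expressed and 46.8 to 47.0% of pairs with the host higher. AP-1 letters were in 18.6% at a bin coverage of 1 bp, 16.2% at all 200 bp and 16% of regions of 400 bp or more. They were in 10.4% in the central 200 bp and 36.2% in windows centred on the gaps, the last chosen after seeing the data. With TSS limits of 1 and 5 kb, intron 1 held 27.6 and 25.7%, and at 5 kb 90.9% were nearest to a host TSS. Intron 1 of any transcript held 43.5%. With 1 TSS per gene 67.5% of regions were nearest to a host and the host was higher in 50.7% of pairs, and among genes of every type these were 63.5 and 83.6%. Hosts expressed were 81.1% by TPM and 86.2% at an FPKM of 0.1. The median difference was -0.070 with a pseudocount of 0.1. The causes of these shifts were not tested. The unlisted alternatives moved the counts by less than 1.5 times and left the shares inside their intervals. Peak lists carry no heights, so weak and strong regions cannot be ranked, and 2 libraries limit the precision of single genes.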
